A study of Mus musculus with 9 samples.

Results

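The 8 mRNAs described here encode proteins of myelin and of the cells that make it: Mbp, Mobp, Mag, Mog, Cnp, Gpm6b, the myelin lipid enzyme gene Ugt8a and the RNA-binding protein gene Qk. They were taken by symbol from the authors' gene table, Qk and Cnp also under their older symbols, out of 11618 genes with at least 1 tag on a transcript in the series and 29261 gene identifiers in that table. All 8 were found in the table and had a tag on a transcript in at least 1 library.

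The study mapped mRNA bound by FMRP, the protein lost in fragile X syndrome, and by the neuronal Hu proteins on polyribosomes of FVB mouse brain. It used HITS-CLIP, in which ultraviolet light fixes a protein to RNA, the protein is precipitated, and the RNA pieces that stay with it are read as tags. In 5 libraries FMRP was precipitated after dissociation in 1% SDS and tags were read on 454: with a mixture of the monoclonal antibodies 7G1-1 and 2F5 at postnatal days 14, 15 and 25 (P14, P15, P25), and with the polyclonal antibody ab17722 at P14 and P25. In 4 libraries made in 2% SDS and read on Illumina, a P11 and a P13 lysate were each divided between ab17722 and a human anti-Hu antiserum. The labels name no mutation, transgene or treatment for these 9 libraries, the mice of the 454 libraries were male, and the Fmr1-null littermates that the study ran in parallel are not analysed here. Littermate brains were pooled, and cortex and cerebellum were cut free of white matter, the tissue richest in oligodendrocytes, so the material limits what can be seen of myelin mRNAs. In such bulk lysates fewer cells of a type and less RNA per cell cannot be told apart.

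Myelin is the wrapping of axons made by oligodendrocytes, and in mouse forebrain and cerebellum it forms mainly in the postnatal weeks these ages fall in. Mbp mRNA is a textbook case of mRNA carried into oligodendrocyte processes and translated at the membrane. The quaking proteins made from Qk bind mRNAs of myelin genes and regulate their splicing, stability and transport, and the quaking mouse, which trembles and lacks compact myelin, has a Qk mutation. Hu proteins bind U-rich and AU-rich stretches, mostly outside the coding sequence, and FMRP tags in brain lie mainly within it.

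Transcript tags numbered 4397 to 7713 in the 454 libraries and 25873 to 49847 in the Illumina libraries, so that 3 tags of a gene, taken here as the limit for a gene with a count of 0, correspond to 60.2 to 682 CPM, the unit used below for a gene's tags scaled to a common library total. Intervals here are two-sided 95% intervals, whose upper bound at a count of 0 is somewhat higher, and cover counting error only. Oligodendrocyte markers other than the members were unevenly present: Olig1, a transcription factor gene of the lineage, had 7 and 35 Hu tags at P11 and P13. Olig2 had 0 and 5 Hu tags and 1 and 2 FMRP tags at these ages. Sox10 had 3 and 0 FMRP tags and was not seen with Hu. Microglial markers summed to at most 2 tags in any Illumina library and endothelial markers to at most 1, with Cx3cr1, Aif1 and Cldn5 at 0 in all 4.

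One limit touches every value of Mbp taken from the tag lists. The authors' table gives Mbp 38 tags in the P13 FMRP library, and the genomic list used here holds 5 in its bounds. Of 362 genes with at least 20 tags there in the table, 3 had less than 50% of them in the list (Mbp, Gramd1b and C230096C10Rik), and the median list count was 1.00 times the table's. The other 9 such genes on the chromosome of Mbp were at 0.864 or above. The cause was not tested. FMRP counts below are the authors' where named so, and Hu counts, which that table does not have, come from the lists.

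Qk carried the most tags of the 8 with Hu. The gene lies on the minus strand at chr17:10403045-10512719 of mm9. Its Hu tags numbered 74 at P11 and 307 at P13, or 2860 CPM (2246 to 3591) and 6159 (5489 to 6888). In the authors' counts FMRP had 2 Qk tags in the P14 monoclonal library, 3 in the P14 polyclonal, 2 at P15, 0 in the P25 monoclonal, 2 in the P25 polyclonal, 8 at P11 and 37 at P13. Both Hu libraries stood above every FMRP library in CPM, and among the Illumina FMRP libraries P13 stood above P11.

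Ugt8a, whose enzyme adds galactose to ceramide to make the main glycolipid of myelin, had the largest difference between Hu and FMRP of the 3 members that could be tested. It lies on the minus strand at chr3:125568261-125641468. Hu had 44 tags at P11 and 210 at P13, or 1701 CPM (1236 to 2283) and 4213 (3662 to 4823). FMRP had 0 tags in all 5 libraries read on 454, 1 at P11 and 14 at P13 by the authors' counts. The Hu and FMRP values did not overlap, but how common such a separation is among all genes was not counted.

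Gpm6b encodes a membrane glycoprotein that neurons express too, and lies on the plus strand at chrX:162676904-162826920. Its Hu tags were 27 at P11 and 111 at P13, or 1044 CPM (687.7 to 1518) and 2227 (1832 to 2682). By the authors' counts FMRP had 0, 1, 4, 1 and 0 tags in the P14 monoclonal, P14 polyclonal, P15, P25 monoclonal and P25 polyclonal libraries, then 3 at P11 and 30 at P13. The 2 Hu libraries were again above all 7 FMRP libraries in CPM, but in point value only. On the transcript lists the P11 Hu interval overlapped those of the P13 FMRP library (477.9 to 998.3) and the P15 library (91.49 to 1297). How many of all genes separate in this way, as Qk and Ugt8a did too, was not counted.

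Cnp, the gene of the cyclic nucleotide phosphodiesterase that keeps channels of cytoplasm open in myelin (plus strand, chr11:100436289-100443039), had tags in every FMRP library. By the authors' counts it had 2, 5, 2, 1 and 2 tags in the 454 libraries in the same order, 2 at P11 and 5 at P13. Its Hu tags were 6 at P11 and 27 at P13, or 231.9 CPM (85.1 to 504.8) and 541.7 (357 to 788.1). The FMRP and Hu ranges overlapped in CPM: of the 454 libraries the P14 monoclonal, P15 and P25 polyclonal lay within the Hu range by the authors' counts, and the P14 polyclonal lay above it at 718 CPM.

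Mobp encodes a small basic protein of compact myelin (plus strand, chr9:120058860-120085209). By the authors' counts it had 1 FMRP tag in each 454 library, 5 at P11 and 11 at P13, and so it too was seen in all 7. The transcript lists hold 4 and 3 at P11 and P13 in place of 5 and 11. Hu had 7 and 11 tags.

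Mbp, the gene of myelin basic protein (plus strand, chr18:82644515-82728095), had 53 tags in the 7 FMRP libraries by the authors' counts, nearly as many as the 54 of Qk. They fell as 0, 4, 5, 2 and 3 in the 454 libraries in the same order, 1 at P11 and 38 at P13. The Hu lists hold 0 Mbp tags at P11 and 10 at P13, under the limit given above.

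The adhesion proteins of the innermost and outermost myelin surfaces were close to the floor. Mag (minus strand, chr7:31684202-31699851) had at most 1 tag in any FMRP library, 5 in all, and 3 in each Hu library. Mog (minus strand, chr17:37147685-37160343) had 3 FMRP tags in all by the authors' counts, and 4 and 8 Hu tags. No difference between libraries was detectable for these 2 genes at this depth.

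**Figure D1:**
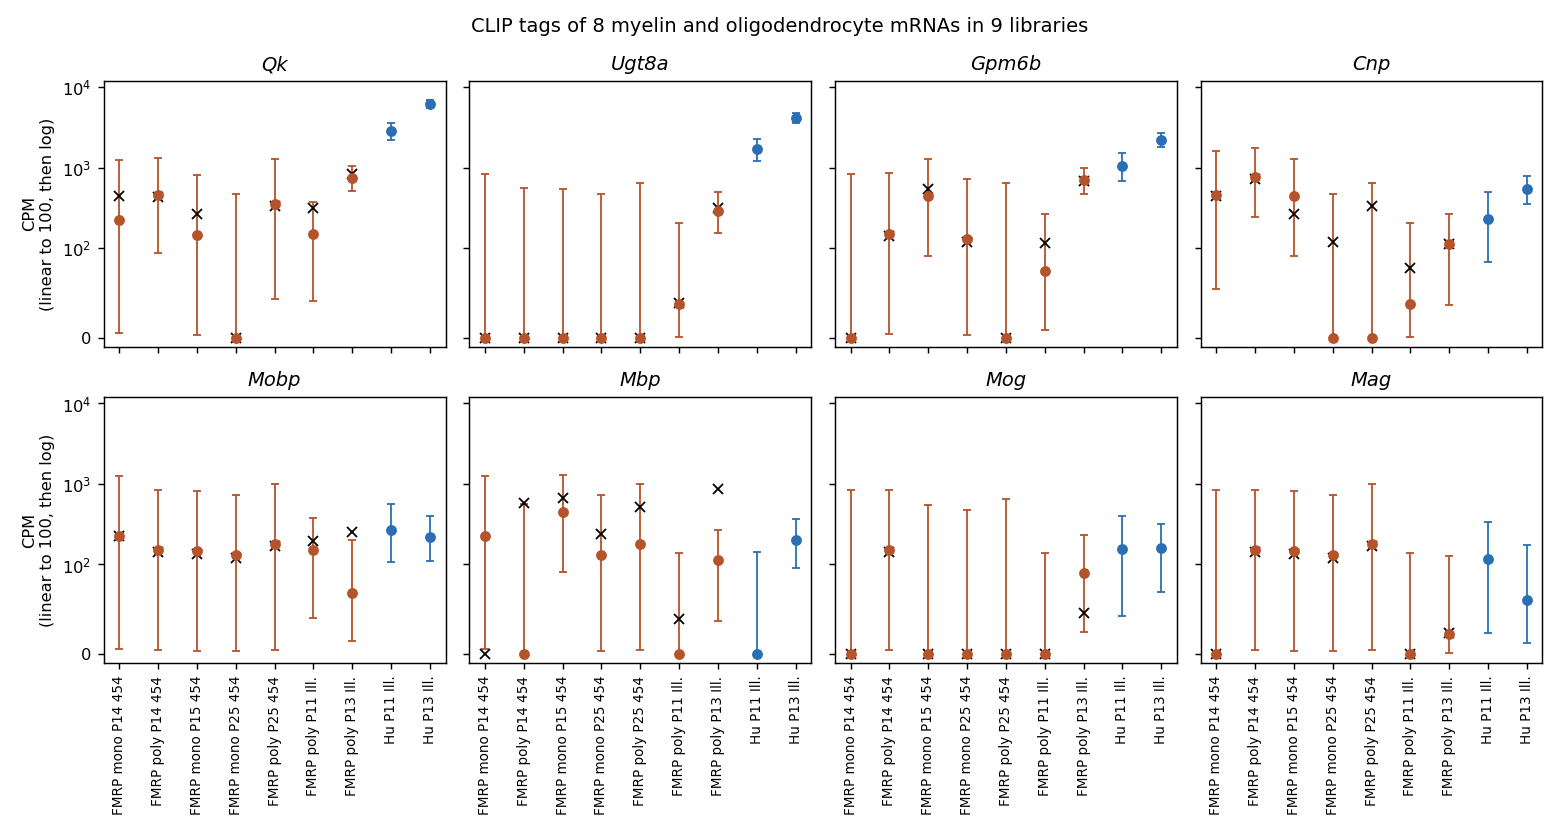
CPM (axis linear to 100, then logarithmic) for each of the 8 mRNAs in the 9 libraries. Dots are transcript tags of the deposited lists with 95% Poisson intervals (FMRP brown, Hu blue), and crosses are the authors' FMRP counts. Qk, Ugt8a and Gpm6b are highest in the 2 Hu libraries, and the cross of Mbp at P13 FMRP (38 tags) lies above its dot (5 tags).

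Per kilobase of the transcript length in the authors' table, the order of the Hu levels at P13 was Ugt8a with 939 CPM per kb (817 to 1075), Qk with 789 (703 to 882), Gpm6b with 317 (261 to 382), Cnp with 175 (115 to 255), Mog with 94.0 (40.6 to 185), Mobp with 34.1 (17.0 to 60.9), Mbp with 29.9 (14.3 to 54.9, under the limit above) and Mag with 16.1 (3.33 to 47.2). The intervals of Ugt8a and Qk overlapped, those of Qk and Gpm6b and of Gpm6b and Cnp did not, and from Cnp down each gene overlapped the next. The exon array in the authors' table, which measured mRNA and not binding, ordered the genes otherwise: Cnp had an intensity of 2603, Ugt8a 1951, Mog 1747, Mag 1617, Mobp 839, Gpm6b 499, Mbp 425 and Qk 362. Array levels of different genes also depend on their probes, so the orders are set side by side only.

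The authors' deposited table gives an FDR of 0.00167 for Qk, 0.00174 for Mbp, 0.00329 for Cnp, 0.0187 for Mobp and 0.0777 for Gpm6b. In the authors' deposited table the FDR of Mag is 1.14, that of Ugt8a 4.99 and that of Mog 5.34, since the column is not capped at 1. The sources used here do not say how those values were computed.

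FMRP was compared with Hu over all genes on the 4 Illumina libraries, to ask which mRNAs of the same lysates were bound more by one protein. Of the 8 members, 3 had enough tags to be tested, and 2 of these, Qk and Ugt8a, were called lower in FMRP, which means higher in Hu; none was called higher in FMRP. Over all 1015 genes tested 277, or 27.3%, were called higher in Hu and 341 higher in FMRP. Ugt8a was lower in FMRP by a log2 difference of -3.69 (SE 0.89, adjusted p = 0.00729 in the edgeR quasi-likelihood fit, Benjamini-Hochberg over all genes tested, 2 libraries against 2). Qk was lower by -2.93 on the log2 scale (SE 0.82, adjusted p = 0.0144 in the same edgeR fit). Gpm6b had a log2 difference of -1.65 (SE 0.88, adjusted p = 0.125 in the same edgeR fit) and was not called.

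The divided lysates pair the libraries, and with the lysate as a block Gpm6b passed as well, with a log2 difference of -2.03 (SE 0.73, adjusted p = 0.0144 by edgeR with the block). Without the P11 FMRP library Qk did not pass (log2 -1.81, adjusted p = 0.0742 by edgeR) and Gpm6b was at -0.45, with the lone FMRP library assumed to vary like the Hu libraries. Without the P13 FMRP library the log2 differences were larger, -4.24 for Qk, -5.57 for Ugt8a and -3.77 for Gpm6b, which then passed (adjusted p = 0.00590 by edgeR). Without the P13 Hu library they were smaller, -1.86 for Qk and -2.47 for Ugt8a, which both passed, and -0.60 for Gpm6b. Without the P11 Hu library they were -3.56, -4.39 and -2.27, and the calls were those of all 4 libraries. Members passed or failed the filter on low counts through the group in which they were high, so the other 5 were not tested and nothing follows for them.

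For Qk, Ugt8a, Gpm6b and Cnp the Hu excess within a lysate was larger at P11 than at P13 in value, and for Mobp it was smaller. For Qk, the CPM in Hu was 19.2 times that in FMRP at P11 (7.18 to 72.2) and 8.23 times at P13 (5.73 to 12.2), on the transcript lists. For Ugt8a it was 45.6 times at P11 (7.76 to 1840, from 1 FMRP tag) and 14.3 times at P13 (8.17 to 27.3). For Gpm6b it was 14.0 times at P11 (3.51 to 121) and 3.17 times at P13 (2.11 to 4.88). The intervals overlapped between the ages for each of these genes. For Cnp the ratio was 6.21 at P11 (0.754 to 286) and 4.77 at P13 (1.81 to 15.9). For Mobp it was 1.81 at P11 (0.461 to 8.44) and 3.24 at P13 (0.857 to 18.1), and both intervals include 1.

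The P11 and P13 libraries, 1 of each protein at each age, were set side by side because myelination gets under way around these ages. With a single library at each age and protein there is no replicate check, and age cannot be told apart from the lysate. With Hu, 4 of the 4 members with at least 20 tags were at least 2-fold higher in CPM at P13, against 17.5% of all 920 such genes. The limit counts both ages together, and Cnp (6 and 27 tags) reached it only through the P13 library. Ugt8a was 2.48 times as high at P13 (1.78 to 3.51), Cnp 2.34 times (0.945 to 6.92), Qk 2.15 times (1.67 to 2.82) and Gpm6b 2.13 times (1.39 to 3.38). The median ratio over all 920 genes was 0.986. Counted as 1 tag per start position, the ratios were 1.82 for Qk, 1.91 for Ugt8a, 1.68 for Gpm6b and 2.12 for Cnp. Thus 1 of the 4 stayed at 2-fold or above, against 15.4% of 799 genes counted that way, whose median ratio was 1.01. Ugt8a had 44 tags on 28 starts at P11 and 210 on 106 at P13, and Qk 74 on 55 and 307 on 199. With every tag counted, Mobp was at 0.816 (0.289 to 2.48), Mog at 1.04 (0.278 to 4.71) and Mag at 0.519 (3 and 3 tags). Mbp went from 0 to 10 listed tags.

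Among the 277 genes called higher in Hu, 11 (3.97%) were at least 2-fold higher with Hu at P13, and both called members, Ugt8a and Qk, were among these 11. The 95th percentile of the ratio in these 277 genes was 1.82 and the median 0.908. The 2 ages served as the Hu replicates in that test, so genes that differ between them were less likely to be called. The ratios of these genes are narrowed by that choice, and they are not a neutral background. Similar ratios were found for other myelin genes and for a neuronal one: Snap25, a neuronal SNARE gene, was 2.12 times as high at P13 (1.65 to 2.76, from 77 to 315 tags). Of 6 neuron markers with at least 20 Hu tags, 1 was at least 2-fold higher at P13 and 1 at least 2-fold lower. Neuron markers together were 1.46 times as high (1.25 to 1.71), and astrocyte markers 2.49 times (1.25 to 5.52, from 10 to 48 tags), of which Glul went from 2 to 28 while S100b was at 0.727 (5 and 7 tags). The part of cell make-up in the members' change was not tested.

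With FMRP, by the authors' counts, 3 of the 3 members with at least 20 tags were at least 2-fold higher at P13, against 15.2% of all 653 such genes. All 3 reached 20 tags only through the P13 library (Gpm6b 3 and 30 tags, Qk 8 and 37). The count of 3 was thus partly fixed by that limit and is description only. Mbp was 22.2 times as high (3.76 to 901, from 1 to 38 tags), Gpm6b 5.85 times (1.82 to 29.97) and Qk 2.71 times (1.24 to 6.73). Ugt8a, with 15 tags, was 8.19 times as high (1.25 to 346). Cnp was at 1.46 (0.239 to 15.4) and Mobp at 1.29 (0.412 to 4.73). On the transcript lists, which hold fewer P11 tags of Qk, Gpm6b and Cnp, the ratios were 5.02 for Qk (1.78 to 19.5), 9.42 for Gpm6b (2.40 to 81.3) and 3.04 for Cnp. For Mobp the direction turned, at 0.456, where the lists hold 3 P13 tags against the authors' 11. Higher values in the P13 FMRP library were common among mRNAs that favoured Hu: of the 26 genes called higher in Hu with enough FMRP tags, 12 (46.2%) were at least 2-fold higher, with a median of 1.80 and an upper quartile of 2.78. Genes called higher in FMRP had a median of 0.898. Both sets were called from these same libraries, with the ages as replicates. Snap25 was 12.1 times as high with FMRP (3.95 to 60.2). On the transcript lists neuron markers together were 1.86 times as high with FMRP (1.44 to 2.44). Of the 4 neuron markers with at least 20 FMRP tags there, 1 was at least 2-fold higher, and their median was 1.51.

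**Figure D2:**
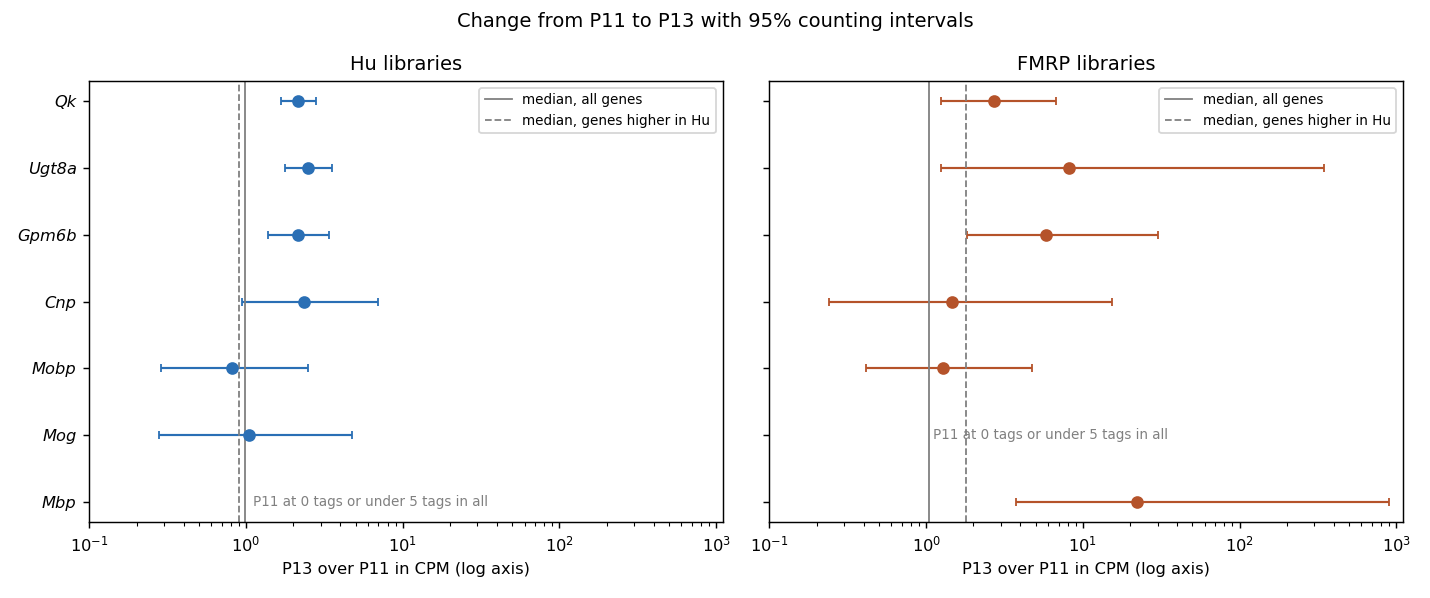
Ratio of CPM at P13 to that at P11 (log axis) with 95% counting intervals, for Hu on transcript tags (left) and FMRP on the authors' counts (right). Lines mark the median over all genes with at least 20 tags (solid) and over genes called higher in Hu (dashed), a set called from these same libraries. With Hu the 4 members from Qk to Cnp lie between 2.13 and 2.48, and with FMRP the dashed line is at 1.80.

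Where the tags lay differed between the proteins and between the FMRP libraries. The Hu tags of several members gathered in a few windows. The shares below count every tag, also those with the same start: Ugt8a at P13 had 210 tags on 106 starts and Qk 307 on 199. Each window was chosen as the fullest, and no share over all genes was counted for it. On Qk 24.1% of 381 Hu tags had their middle in 1 stretch of 100 nt, 5247 to 5346 nt from the transcript start, and the median tag lay at 4804 nt. On Ugt8a 38.2% of 254 tags lay between 1915 and 2014 nt. On Gpm6b 26.1% of 138 tags lay between 2315 and 2414 nt. On Cnp 22 of 33 tags lay between 1435 and 1534 nt, and on Mobp 14 of 18 between 809 and 908 nt. On Mbp, under the limit above, the fullest window held 2 of 10. The fullest window was shared by both ages for Ugt8a to within 18 nt (starts at 1933 and 1915 nt) and nearly so for Mobp (809 and 811 nt). It differed for Qk, where it began at 4583 nt at P11 and at 5247 nt at P13. It also differed for Gpm6b, with starts at 2075 nt at P11 and 2369 nt at P13. For Cnp it began at 2195 nt at P11 (3 of 6 tags) and at 1435 nt at P13 (20 of 27). The pooled windows thus weigh the deeper P13 library more.

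The P13 FMRP tags of Qk and Ugt8a lay where Hu tags lay. Of 33 P13 FMRP tags on Qk, 30 overlapped a Hu tag by at least 10 nt, while Hu tags covered 48.1% of the stretch up to the last tag. On Ugt8a it was 11 of 13, with 40.6% covered, and on Gpm6b 22 of 31, with 47.5% covered. Of the P11 FMRP tags 1 of 4 on Qk, 1 of 1 on Ugt8a and 0 of 2 on Gpm6b did so, and of the 454 tags 3 of 7 on Qk and 1 of 5 on Gpm6b. The other members had few tags: on Cnp 0 of 5 P13 FMRP tags and 4 of 10 tags on 454 overlapped a Hu tag, with 20.8% covered. On Mbp it was 1 of 5 and 4 of 6, with 11.4% of its stretch covered. Of the P13 FMRP tags of Mog 2 of 4 did so (20.2% covered), of Mobp 0 of 3 (6.89%) and of Mag 0 of 1 (6.93%). Counts this low cannot show whether these members differ from Qk and Ugt8a. The median position of FMRP tags on Qk was 773.5 nt at P11 (4 tags), 760 nt in the 454 libraries (7 tags) and 4646 nt at P13 (33 tags). This overlap measure, the split of ratios by coding sequence and the count of shared tag starts given below were chosen after the data were seen.

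**Figure D3:**
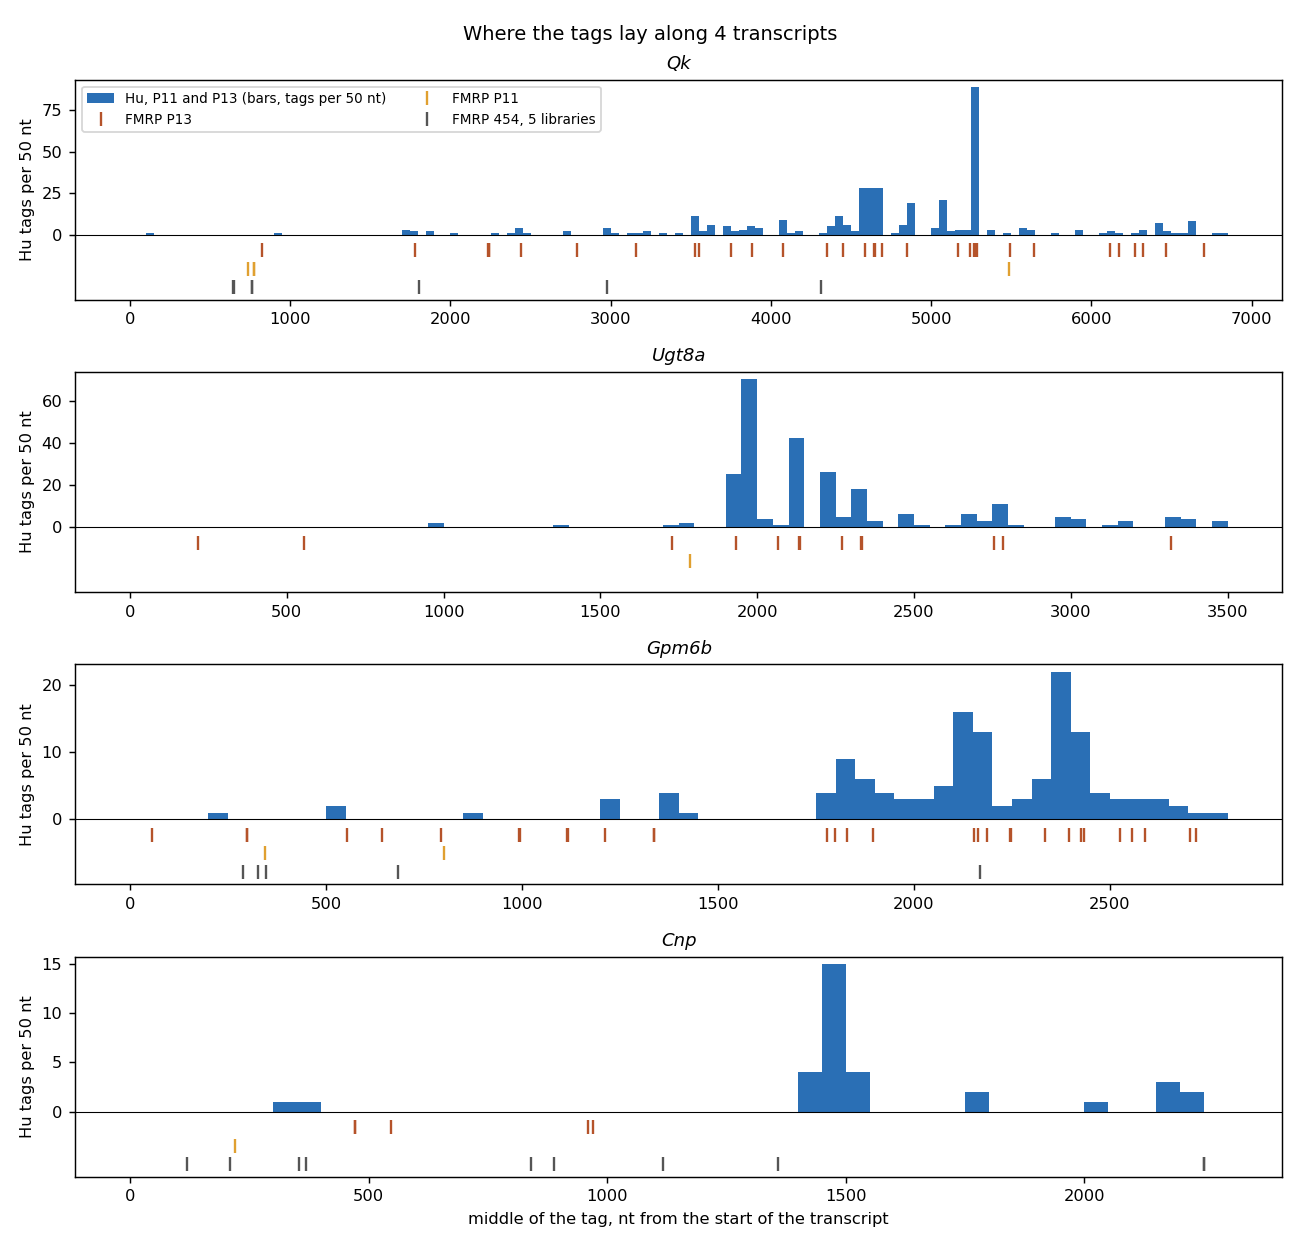
Position of tag middles along the Qk, Ugt8a, Gpm6b and Cnp transcripts, in nt from the transcript start. Bars count Hu tags of both ages in 50 nt, and ticks below 0 mark single FMRP tags at P13, at P11 and in the 5 libraries read on 454. On Qk the P13 FMRP ticks spread over the Hu bars (30 of 33 overlap a Hu tag), and on Cnp they do not (0 of 5).

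The authors' coding counts gave the same split. Of the members' FMRP tags in the 454 libraries, 28 of 51, or 54.9% (Wilson interval 41.4 to 67.7), lay in coding sequence, where an even spread along the transcripts would give 24.4%. At P11 it was 13 of 20, or 65.0% (43.3 to 81.9). At P13 it was 19 of 138, or 13.8% (8.99 to 20.5), where an even spread would give 18.3%. The share over all genes went from 81.6% at P11 to 69.7% at P13, and over genes called higher in Hu from 59.8% to 25.3%.

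Counted by part of the transcript, the members' P13 excess with FMRP lay outside the coding sequence. Coding tags of the 8 went from 13 at P11 to 19 at P13, a CPM ratio of 0.855 (0.401 to 1.88). Tags outside coding sequence went from 7 to 119, a ratio of 9.95 (4.68 to 25.3), and without Mbp from 6 to 82, a ratio of 8.0 (3.52 to 22.4). Qk alone had 8 coding tags of 8 at P11 and 5 of 37 at P13. Gpm6b had 3 of 3 and 6 of 30, Ugt8a 0 of 1 and 3 of 14, and Mbp 0 of 1 and 1 of 38. Cnp did not share the shift, with 1 of 2 and 4 of 5, and Mobp had 1 of 5 and 0 of 11. Over genes called higher in Hu the ratio was 0.862 inside coding sequence and 3.77 outside it, and over genes called higher in FMRP 0.841 and 1.00. Of the members' 95 listed P13 FMRP tags, 24.2% began at the same nucleotide as a P13 Hu tag, against 0 of 12 at P11; over genes called higher in Hu the shares were 18.9% and 2.83%. Their part in the members' FMRP values was not tested.

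**Figure D4:**
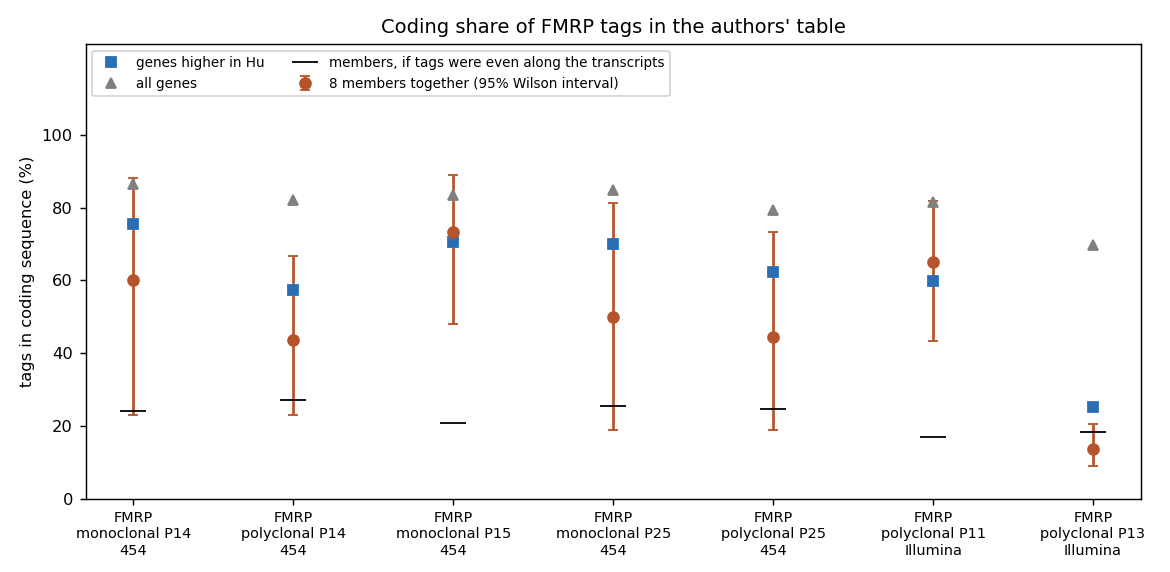
Share of FMRP tags in coding sequence (%) in the 7 FMRP libraries, from the authors' counts: the 8 members together with 95% Wilson intervals (dots), genes called higher in Hu (squares), all genes (triangles), and the share the members would have if tags were even along their transcripts (bars). The members are at 13.8% in the P13 library and at 43.8% to 73.3% in the other 6.

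The older ages were compared on the 454 libraries, P25 against P14 and P15. No member had enough tags for the test, and of the 96 genes that did, 0 passed in edgeR's quasi-likelihood test, with 5 at an unadjusted p under 0.05. By the authors' counts Qk had 2, 3 and 2 tags in the P14 and P15 libraries and 0 and 2 at P25, and Mbp had 0, 4 and 5 and then 2 and 3. Cnp had 2, 5 and 2 and then 1 and 2. These counts overlapped between the ages.

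The other genes of the pathway were read from lists by role. For each list, the comparison is with all 1015 genes tested, of which 277 (27.3%) were called higher in Hu and 341 higher in FMRP. The median log2 difference over all of them was -0.16. Among 27 other genes of myelin proteins and myelin lipids, 7 were tested, 3 were called higher in Hu and 0 higher in FMRP, with a median log2 difference of -2.37. Like the members, these genes passed the filter on low counts through the Hu libraries, in which they were high. That shapes the counts and the median, and nothing follows for the genes not tested. Those called were Gpm6a, the neuronal relative of Gpm6b (log2 -2.25, SE 0.78, adjusted p = 0.0320 by edgeR), the connexin gene Gjc3 (log2 -2.41, SE 0.85, adjusted p = 0.0337 by edgeR) and Ermn, the gene of a late oligodendrocyte protein (log2 -2.48, SE 0.75, adjusted p = 0.0188 by edgeR). The tight-junction gene Cldn11 had a log2 difference of -2.37 (SE 0.98, adjusted p = 0.0582 by edgeR) and was not called. With Hu, 4 of the 8 genes of this list with at least 20 tags were at least 2-fold higher at P13, against 17.5% of all 920 such genes. Among them was Cldn11, by 3.40 times (2.23 to 5.42). Some of the 4 reached 20 tags only through the P13 library.

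Of 19 oligodendrocyte lineage genes none had enough tags to be tested. Olig1 had 7 and 35 Hu tags at P11 and P13 and 0 and 7 FMRP tags. The transcription factor gene Zfp488 had 6 and 13 with Hu and 3 and 3 with FMRP. Ptprz1, a receptor phosphatase gene of the progenitors, leaned to FMRP in value, with 11 and 8 FMRP tags and 1 and 5 Hu tags. Lineage genes together were 1.90 times as high with Hu at P13 (1.22 to 3.05) and 0.712 times with FMRP (0.442 to 1.15).

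Of 15 genes of axoglial contact and myelin inhibition 4 were tested, and they split. Ncam1, a neural adhesion gene, was called higher in Hu (log2 -2.73, adjusted p = 0.00934 by edgeR), as was the adhesion gene Cadm2 (log2 -2.08, adjusted p = 0.0345 by edgeR). Lingo1, a co-receptor gene that restrains myelination, was called higher in FMRP, with 10 and 32 FMRP tags and 4 and 2 Hu tags (log2 3.00, adjusted p = 0.0154 by edgeR). Rtn4, which encodes the axon growth inhibitor Nogo, had a log2 difference of 1.14 (adjusted p = 0.131 by edgeR). Ncam1 was lower with Hu at P13, from 164 tags at P11 to 101 at P13, a ratio of 0.320 (0.247 to 0.412).

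Of 16 genes for the transport and regulation of myelin mRNAs 4 were tested and 3 were called. Elavl1, the gene of the Hu protein HuR, had 36 and 66 Hu tags against 0 and 7 FMRP tags (log2 -3.51, adjusted p = 0.0120 by edgeR). Khsrp, which encodes a protein that binds AU-rich elements, was called higher in Hu too (log2 -2.13, adjusted p = 0.0381 by edgeR). Ckap5, a microtubule-binding partner in the transport of Mbp mRNA, was called higher in FMRP with 37 and 35 FMRP tags against 2 and 10 Hu tags (log2 3.06, adjusted p = 0.00750 by edgeR). Kif1b, the gene of a kinesin needed to bring Mbp mRNA into processes, had 100 and 144 FMRP tags and 52 and 92 Hu tags (log2 1.13, adjusted p = 0.0845 by edgeR). Their Hu ratios of P13 to P11 were 0.918 for Kif1b (0.647 to 1.32), 0.952 for Elavl1 (0.625 to 1.47), 0.474 for Khsrp (0.249 to 0.896) and 2.60 for Ckap5 (0.553 to 24.4).

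The 5 genes whose levels over the 9 libraries were most like those of Qk, among 613 genes with at least 50 Illumina transcript tags, were Dclk1 (Pearson's r = 0.957), Mapre2 (0.955), App (0.946), Gsk3b (0.924) and Cnr1 (0.918). The measure is a description over log2(CPM + 10), and its points share depth, platform and the split between FMRP and Hu. Ugt8a was 54th with 0.788 and Gpm6b 197th with 0.484.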

How the data were processed

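The 9 libraries are lists of tags on the mm9 genome and on RefSeq transcripts. Per the submitters' processing notes Novoalign was used, with no version given. A line of a list was counted as 1 tag, and the score beside each tag in the Illumina lists, deposited with no stated meaning, was not used. The authors' gene table gives tag counts per gene (whole transcript and coding sequence) for the 7 FMRP libraries. It also holds an exon array intensity and the authors' own p-value and FDR; the FDR was treated as a score as deposited. CPM divides by the library's transcript tags, or by the table's total for the authors' counts.

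FMRP was tested against Hu with edgeR 4.0.16 (R 4.3.3) on the 4 Illumina libraries: TMM, filterByExpr, quasi-likelihood test, Benjamini-Hochberg adjustment over all 1015 genes tested at 0.05, two-sided. P25 against P14 and P15 was fitted on the authors' counts with antibody as a term. The fit was tested on simulated data. DESeq2 1.42.0 was an alternative. Ratios of 2 libraries carry exact counting intervals, and shares Wilson intervals. Libraries of a group differ in age and are pools of mice, and the p-values speak only of the spread among these libraries. The series text says that each lysate was divided, which pairs the libraries by lysate (correlation of paired deviations 0.16 over 1015 genes).

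Named genes are all 8 members and, of each other list, every gene called between FMRP and Hu and the 3 with most Illumina tags; likeness to Qk names 5. A gene that this rule names is not reported here. Members and lists were chosen with earlier results of these data known. Transcript and coding bounds within the transcripts were not used here, so positions are counted from the transcript start.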

Additional observations from a re-analysis of the deposited data

Results flagged for a closer look

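The authors' table has a further line under the gene identifier of Qk, at chr17:10399303-10401470 of mm9, just past the end of Qk's RefSeq bounds. Tags there enter none of the comparisons above. On the strand of Qk it held 16 genomic Hu tags, 5 at P11 and 11 at P13, above the 3 that a count of 0 allows, and 2 FMRP tags, both at P13. No group has 4 or more libraries, so no library was examined as an outlier within its group.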

How the results depend on the processing

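Between FMRP and Hu, 2 members were called; leaving out 1 library at a time gave 1 to 3, and genomic tags in gene bounds gave 4 of 4 tested (Qk, Ugt8a, Gpm6b and Mobp). With the lysate as a replicate block 3 were called, as with library totals and with 1 tag per start position. Over all genes the share called higher in Hu was 22.0% of 973 with genomic tags and 26.5% with the block. With library totals it was 36.1%, and with 1 tag per start position 32.6%. Ugt8a passed under every alternative run, and Qk under all but the one without the P11 FMRP library. No member's log2 difference changed sign. The number of all genes called higher in Hu, 277, was 77 without the P11 FMRP library, 84 without the P13 Hu library, 109 without the P11 Hu library, 155 with no filter and 128 with DESeq2, and at most 366. The median log2 over all genes was 0.21 under size factors from DESeq2 and -0.38 under library totals, against -0.16. For P25 against P14 and P15 no member was called under any alternative; without the filter 7 members were tested among 5941 genes, of which 68 had an unadjusted p under 0.05. With Hu, 1 member and not 4 was at least 2-fold higher at P13 with 1 tag per start position; with genomic tags it was 4 of 5, Mobp being at 1.40, while the median of all genes rose to 1.37 and 24.6% of 964 genes reached 2-fold. With FMRP the transcript lists gave 2 of 2 members, since Mbp has too few listed tags, against 14.7% of 760 genes. TMM scaling moved the median of all genes to 1.22 and the share at 2-fold to 23.4%. Over the 7 FMRP libraries the lists hold 11 Mbp tags against the authors' 53, and 12 Mobp tags against 21. Counts this low limit Mag, Mog, Mbp and Mobp to large differences.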

Other observations

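Besides Ugt8a and Qk, 9 of the 277 genes called higher in Hu were at least 2-fold higher with Hu at P13; they are named here after their values were seen. Litaf, the gene of an endosomal membrane protein, went from 9 to 82 tags (4.73 times in CPM), and Msi2, an RNA-binding protein gene, from 17 to 88 (2.69 times). The cannabinoid receptor gene Cnr1 went from 20 to 93 tags (2.41 times) and Mal2, a relative of the myelin gene Mal, from 9 to 42 (2.42 times). The others were Tm9sf3, Ppm1k, Adam23, Napg and Pfn1, between 2.02 and 2.21 times.

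Of 10 astrocyte markers 3 were tested and 2 were called higher in FMRP by edgeR's quasi-likelihood test, as were 341 of all 1015 genes tested. They were Slc1a2, the glial glutamate transporter gene, with 24 and 32 FMRP tags and none with Hu (adjusted p = 0.00223 by edgeR), and Sparcl1 with 12 and 23 FMRP tags and 1 and 1 with Hu (adjusted p = 0.00234 by edgeR). Both passed the filter on low counts only through the FMRP libraries, so nothing follows for the markers not tested. Of those, S100b had 0 and 1 FMRP tags and 5 and 7 Hu tags. The glutamine synthetase gene Glul had 9 and 25 FMRP tags and 2 and 28 Hu tags and was not called (adjusted p = 0.484 by edgeR).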
